A study of Mus musculus with 20 samples.

Results

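The genes described here are 10 that mark the fetal or stressed state of heart muscle cells: Nppa, Nppb, Myh6, Myh7, Acta1, Actc1, Ankrd1, Xirp2, Myl7 and Myl4. They were chosen by name, beside 18193 genes on the array that have a probe set annotated with their symbol alone, and every probe set giving 1 of the 10 symbols alone was used. That gave 12 probe sets for 9 genes. Xirp2 had no probe set with its symbol alone and is not measured here. Of the 12 probe sets, 10 probe sets of 8 genes were bright enough to be tested, while Myl7 and a second probe set of Myl4 were below the filter on dim probe sets.

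Left ventricles of 20 male C57BL/6J mice were hybridised to Affymetrix GeneChip Mouse Genome arrays, 1 array a mouse, in 5 groups of 4. The mice arrived at 6 weeks of age, had 2 weeks of acclimation and then 4 weeks of standard chow, plain or with a powdered statin tablet mixed in. Statins inhibit HMG-CoA reductase, the rate-limiting enzyme of cholesterol synthesis. Pitavastatin calcium was given at 4.5 mg/kg/day, pravastatin sodium at 21.0 mg/kg/day, rosuvastatin calcium at 10.9 mg/kg/day and atorvastatin calcium hydrate at 11.4 mg/kg/day, and control mice ate the chow without a drug. The doses differed between the drugs, so a difference between 2 statins is also a difference between 2 doses. No other treatment is named, and no label ties mice of different groups to a shared litter or day. The p-values of group differences set them against the spread between these mice.

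The fetal ventricle uses a set of contractile and hormone genes that the adult ventricle turns down or swaps, and pressure or volume load brings several of them back. In the adult mouse ventricle the fast alpha myosin heavy chain Myh6 is the main motor and the slow beta chain Myh7 is low, Actc1 is the main sarcomeric actin beside the skeletal isoform Acta1, and the atrial light chains Myl7 and Myl4 are kept to the atria after birth. Nppa and Nppb encode natriuretic peptides that heart muscle releases on stretch, Ankrd1 encodes a stretch-responsive ankyrin repeat protein of the sarcomere and nucleus, and Xirp2 encodes an actin-binding repeat protein of the intercalated disc.

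Promoters of 6 of these genes are shown because their genes varied together among the mice or because they carry sites that heart studies link to the stress response. All 10 genes matched the RefSeq promoter table of build GRCm38.p6. Each run is the 250 bases before the annotated start, 5′ to 3′ along the gene. Capitals mark a TATA box (TATAAA), an MCAT box (CATTCC, bound by TEAD factors), a GATA core (GATAA, bound by GATA4 in the heart) or a CArG box (the site of serum response factor), each searched on both strands.
Nppa, chr4:148000472-148000721, plus strand: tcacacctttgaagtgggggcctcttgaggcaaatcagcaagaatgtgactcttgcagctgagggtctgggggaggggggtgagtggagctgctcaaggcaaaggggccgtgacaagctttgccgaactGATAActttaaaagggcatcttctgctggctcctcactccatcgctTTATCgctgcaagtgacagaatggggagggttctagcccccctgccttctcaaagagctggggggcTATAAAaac
Nppb, chr4:147985650-147985899, plus strand: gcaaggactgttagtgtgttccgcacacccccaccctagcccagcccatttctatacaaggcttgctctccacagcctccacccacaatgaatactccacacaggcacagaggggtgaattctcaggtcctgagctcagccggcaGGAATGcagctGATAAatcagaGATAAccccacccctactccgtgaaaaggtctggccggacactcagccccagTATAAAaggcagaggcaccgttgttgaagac
Ankrd1, chr19:36119845-36120094, minus strand: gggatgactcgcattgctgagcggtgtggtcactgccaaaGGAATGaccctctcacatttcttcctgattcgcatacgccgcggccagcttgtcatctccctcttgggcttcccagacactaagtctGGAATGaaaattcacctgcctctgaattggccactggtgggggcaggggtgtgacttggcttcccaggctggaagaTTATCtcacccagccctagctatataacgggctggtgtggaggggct
Acta1, chr8:123894776-123895025, minus strand: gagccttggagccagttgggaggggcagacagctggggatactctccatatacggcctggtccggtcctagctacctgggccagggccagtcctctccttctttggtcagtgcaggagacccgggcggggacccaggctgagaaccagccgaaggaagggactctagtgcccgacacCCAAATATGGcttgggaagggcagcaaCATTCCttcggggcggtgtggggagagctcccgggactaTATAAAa
Actc1, chr2:114052876-114053125, minus strand: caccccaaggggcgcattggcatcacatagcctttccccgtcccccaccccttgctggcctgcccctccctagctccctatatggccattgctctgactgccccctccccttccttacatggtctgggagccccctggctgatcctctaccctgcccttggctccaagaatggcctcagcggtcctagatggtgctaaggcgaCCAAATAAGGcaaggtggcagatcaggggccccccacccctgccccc
Myl7, chr11:5898783-5899032, minus strand: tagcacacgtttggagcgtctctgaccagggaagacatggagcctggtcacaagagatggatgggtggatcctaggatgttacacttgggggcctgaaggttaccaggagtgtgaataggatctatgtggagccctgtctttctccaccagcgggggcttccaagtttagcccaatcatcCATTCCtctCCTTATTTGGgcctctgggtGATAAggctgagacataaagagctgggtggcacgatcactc
Nppa and Nppb, which lie on the same chromosome and strand, each held a TATA box and 2 GATA cores, and Nppb also held an MCAT box. Ankrd1 held 2 MCAT boxes and 1 GATA core. A CArG box was found in 3 promoters, those of Acta1, Actc1 and Myl7, with its first base 73, 47 and 61 bases upstream of the start. Acta1 and Myl7 also held an MCAT box each. Among all 32851 promoters of the table, 12.4% held the TATA box, 12.6% the MCAT box, 22.6% the GATA core and 1.47% the CArG box in the same window. Of the other 4 genes, Myh6 and 1 of the 2 listed starts of Myh7 held 1 MCAT box each, and none of the 4 motifs was found for Myl4 or Xirp2. A match is a run of letters and was not tested as a binding site.

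The deposited signals had a trimmed mean of 500 on every array. The median signal of an array still ranged between 41.67 in rosuvastatin mouse 3 and 144.1 in atorvastatin mouse 2, and the 99th percentile between 11960 and 17240. The 10 ventricular muscle markers, Myl2, Myl3, Tnnt2, Tnni3, Actn2, Ttn, Mybpc3, Irx4, Ryr2 and Pln, were all measured above the filter in these hearts. Their summed signal lay between 272353 and 312580 with pitavastatin, between 223981 and 298061 with pravastatin, between 174258 and 353333 with rosuvastatin and between 168734 and 370288 with atorvastatin, against 245862 to 285849 in control mice. Of 9 skeletal muscle markers, 1 passed the filter, and the summed signal of the list was at most 581 in any mouse.

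No member was called by limma in any comparison. In each of the 4 comparisons of a statin with control, 0 of 10 member probe sets passed an adjusted p of 0.05, as did 0% of all 22518 tested probe sets. Unadjusted p-values under 0.05 were found for 0 members and 435 of all probe sets with pitavastatin, for 0 members and 886 probe sets with pravastatin, for 1 member and 2469 probe sets with rosuvastatin, and for 1 member and 1028 probe sets with atorvastatin. These comparisons share the control mice. For the mean of the 4 statins against control, 0 of 10 members and 0% of all probe sets passed, with 0 members and 686 probe sets at an unadjusted p under 0.05. Between statins, 0 members passed in any of the 6 comparisons, beside 0.00888% of all probe sets for pitavastatin against pravastatin, 0.00444% for pitavastatin against rosuvastatin and 0% in the other 4. An unadjusted p under 0.05 was found for 1 member and 8.64% of all probe sets in pitavastatin against pravastatin, for 0 members and 11.7% against rosuvastatin, and for 2 members and 12.2% against atorvastatin. It was found for 0 members and 3.19% in pravastatin against rosuvastatin, for 1 member and 3.11% against atorvastatin, and for 2 members and 5.49% in rosuvastatin against atorvastatin. The F test over the 5 groups called 0 of 10 members, beside 0.00444% of all probe sets, and gave 1 member, Myh7, and 1404 probe sets an unadjusted p under 0.05. Over all tested probe sets, the 95% confidence interval of a difference between a statin and control had a median width of 0.356 on each side of the estimate, in log2 units. Most member probe sets had wider intervals. The widest were those of Myl4, which ran between -0.86 and 1.70 with pitavastatin.

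**Figure D1:**
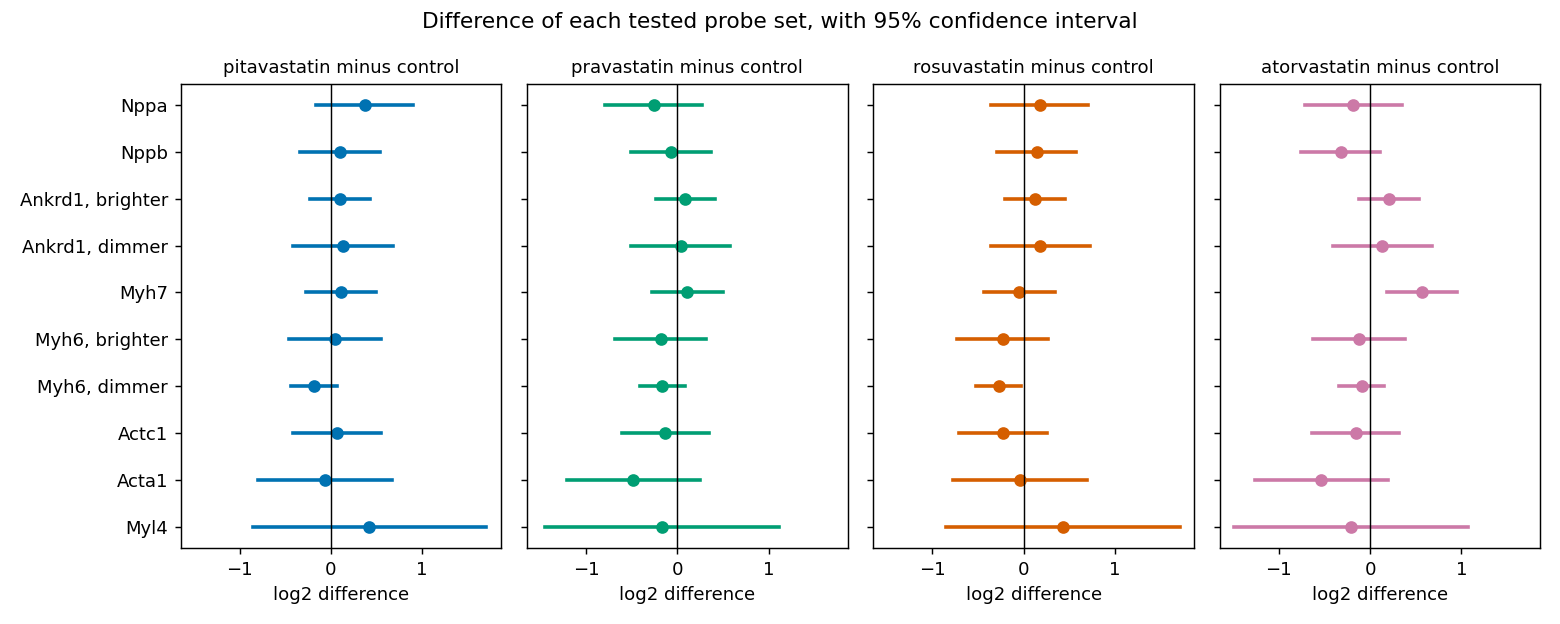
Difference of each statin from control for the 10 tested member probe sets on the log2(signal + 16) scale, where points are limma estimates and bars are 95% confidence intervals. The interval of Myh7 with atorvastatin runs between 0.18 and 0.95 and that of the dimmer Myh6 probe set with rosuvastatin between -0.52 and -0.03. All other intervals cross 0.

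Neither natriuretic peptide differed from control beyond the spread between mice. Nppa, the atrial natriuretic peptide, had signals of 6720, 12103, 8360 and 10202 in pitavastatin mice, 7300, 4260, 7313 and 5315 in pravastatin mice, 8418, 8219, 8857 and 6534 in rosuvastatin mice and 7449, 3410, 9832 and 5953 in atorvastatin mice, against 5683, 6845, 7394 and 8593 in control mice. The 2 highest mice were both on pitavastatin and the lowest was on atorvastatin, but every statin group overlapped the control mice. On the log2 scale pitavastatin mice differed from control mice by 0.37 (SE 0.25, 95% interval -0.16 to 0.90), pravastatin mice by -0.26, rosuvastatin mice by 0.17 and atorvastatin mice by -0.18. Its largest difference lay between statins, where pitavastatin exceeded pravastatin by 0.63 (SE 0.25, adjusted p = 0.521). Pitavastatin mice were also 0.55 above atorvastatin mice (adjusted p = 0.392), so neither passed the test.

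Nppb, the B-type peptide, had signals of 8932, 9654, 8579 and 8077 in pitavastatin mice, 11246, 6633, 7056 and 7166 in pravastatin mice, 9969, 8883, 11060 and 6843 in rosuvastatin mice and 8150, 4721, 7375 and 6490 in atorvastatin mice, against 5270, 10228, 9494 and 8836 in control mice. All groups overlapped, and control mouse 1 was below all but 1 of the 20 mice. The pitavastatin mean differed from the control mean by 0.10, the pravastatin mean by -0.07, the rosuvastatin mean by 0.14 and the atorvastatin mean by -0.32 (95% interval -0.76 to 0.11). Rosuvastatin mice exceeded atorvastatin mice by 0.46 (SE 0.21, adjusted p = 0.749).

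The peptides were correlated among mice of the same group, in a call that some other settings kept and others lost. After subtracting group means, Nppa and Nppb had a Pearson r of 0.66 over 20 mice (permutation p = 0.00268, adjusted p = 0.0322 over the 36 member pairs) and a Spearman rho of 0.59 (permutation p = 0.0101, adjusted p = 0.121). Without atorvastatin mice 2 and 3, the farthest from the median of Nppa, r was 0.60. Nppb was also lower on arrays with a higher median signal, with r = -0.70 (rho = -0.71, permutation p = 0.00447, adjusted p = 0.0234 over 18 relations, r = -0.63 without the 2 farthest mice). With the array median regressed out, r between the peptides was 0.50 (permutation, adjusted p = 0.177). After quantile normalization r was 0.64 (permutation, adjusted p = 0.0556), and without pitavastatin mouse 2 and rosuvastatin mouse 3 it was 0.65 (permutation, adjusted p = 0.152). The call stayed with replicate number means also subtracted, where r was 0.67 (permutation, adjusted p = 0.00696). It also stayed with 1 or 64 added to each signal before log2 (permutation, adjusted p = 0.0322 and 0.0324). The part that array brightness has in the relation was not tested further.

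Genes that process and receive these peptides were read from a list of 9, of which 7 were tested. No gene of the list was called in any comparison. For pitavastatin, pravastatin, rosuvastatin and atorvastatin in turn, the median difference of the list was -0.01, -0.03, 0.06 and 0.05, beside -0.00341, -0.0221, -0.0197 and -0.0279 over all probe sets. The 2 smallest F test p-values of the list belonged to Prkg1, the cGMP-dependent kinase downstream of the receptors (F = 3.72, adjusted p = 0.696), and Pcsk6, a proprotein convertase (F = 1.78, adjusted p = 0.787). Prkg1 differed from control by 0.24 with atorvastatin (SE 0.10, adjusted p = 0.964).

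Ankrd1, the stretch-responsive ankyrin repeat gene, had 2 probe sets. The brighter gave 17319, 18148, 13326 and 13949 in pitavastatin mice, 16326, 17268, 14394 and 13899 in pravastatin mice, 15502, 19401, 14618 and 14151 in rosuvastatin mice and 15328, 19454, 14468 and 18086 in atorvastatin mice, against 17134, 18506, 11827 and 11709 in control mice. The 2 lowest of the 20 mice were control mice 3 and 4, control mouse 2 was the third highest, and control mouse 1 lay in between. Each statin mean was above the control mean, by 0.10, 0.09, 0.13 and 0.21 on the log2 scale for pitavastatin, pravastatin, rosuvastatin and atorvastatin, with an SE of 0.16 for each. The mean of the 4 statins differed from control by 0.13 (95% interval -0.13 to 0.39, adjusted p = 0.999). The dimmer probe set ranged between 1942 and 4280 and gave 0.13, 0.04, 0.18 and 0.14 in the same order (SE 0.26), and the 2 probe sets correlated at r = 0.52 over the 20 mice.

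**Figure D2:**
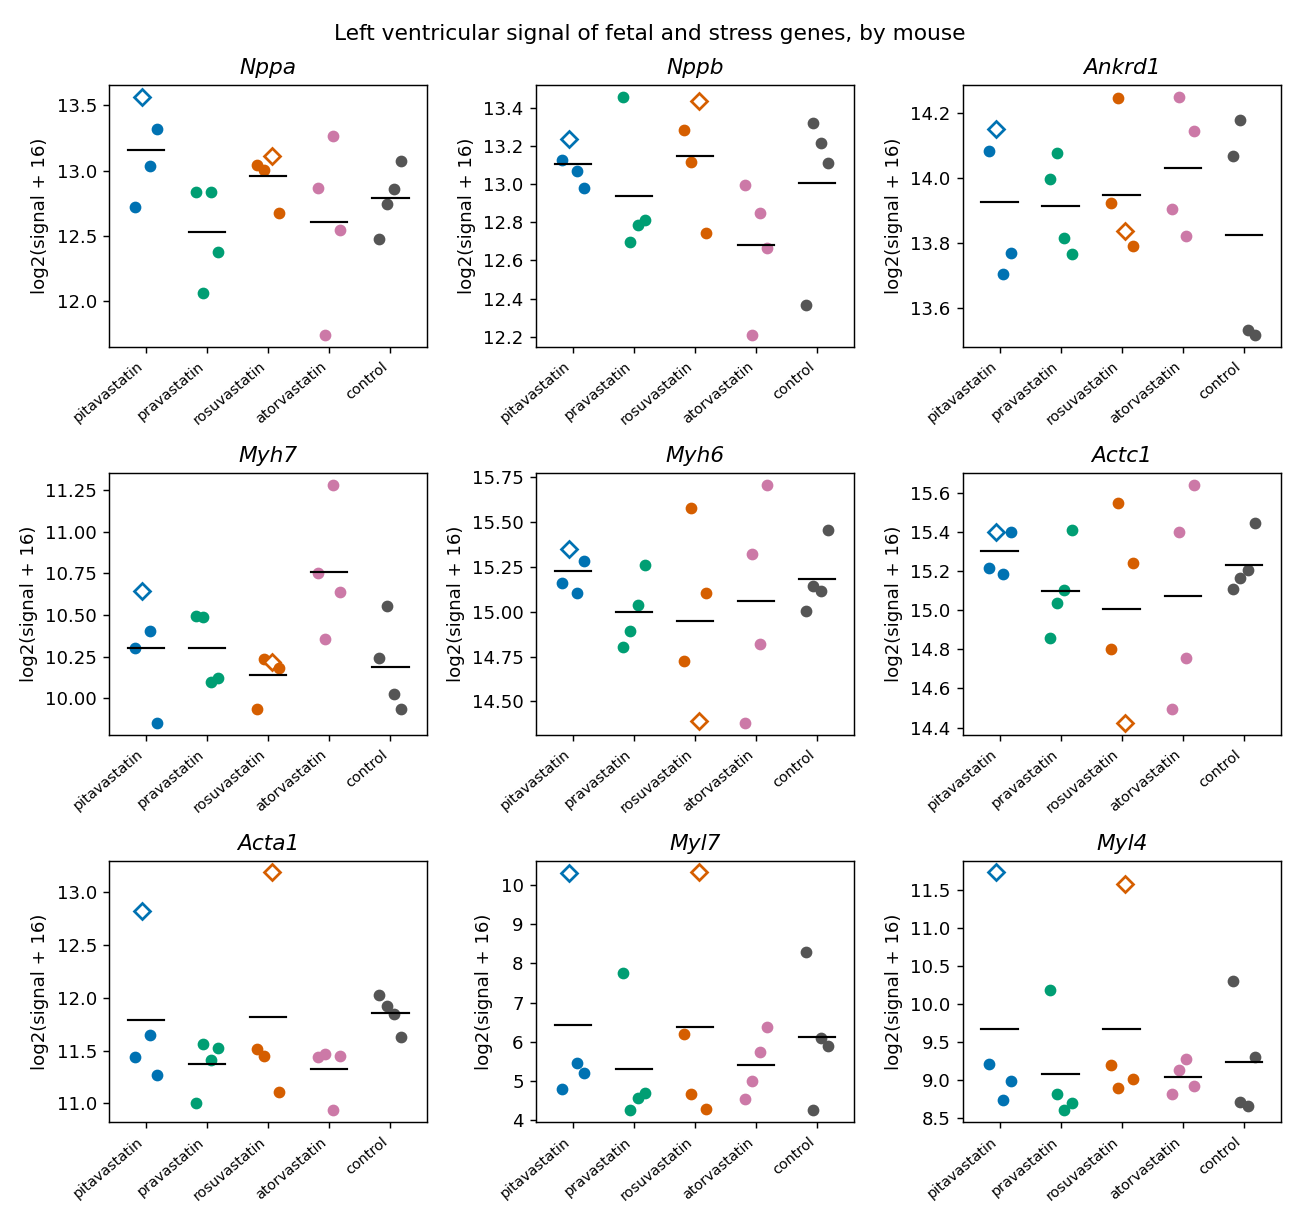
Signal of the brightest probe set of each measured gene in every mouse as log2(signal + 16), 4 mice a group, where bars are group means and open diamonds are pitavastatin mouse 2 and rosuvastatin mouse 3. Acta1 is lower in all 4 pravastatin and all 4 atorvastatin mice than in any control mouse, and the open diamonds stand above all other mice for Acta1, Myl7 and Myl4.

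Among the myosin heavy chains, Myh7 gave the smallest p-value of any member. Its signals were 1247, 1584, 1340 and 910 in pitavastatin mice, 1429, 1420, 1080 and 1099 in pravastatin mice, 963, 1190, 1175 and 1146 in rosuvastatin mice and 1710, 1297, 2476 and 1581 in atorvastatin mice, against 1195, 1488, 1029 and 964 in control mice. In 3 of 4 atorvastatin mice Myh7 was above every control mouse, with atorvastatin mouse 3 the highest of all 20 and atorvastatin mouse 2 within the control range. Atorvastatin exceeded control by 0.57 (SE 0.18, 95% interval 0.18 to 0.95), with an unadjusted limma p of 0.00619 and an adjusted p of 0.964. Pitavastatin and pravastatin each differed from control by 0.11 and rosuvastatin by -0.05 (SE 0.18 for each).

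Atorvastatin also had the highest Myh7 mean among the statins. Pitavastatin was 0.46 below it (-0.46, SE 0.18, adjusted p = 0.345), pravastatin likewise (-0.46, adjusted p = 1), and rosuvastatin showed a difference of -0.62 (SE 0.18, adjusted p = 0.749). The F test over the 5 groups gave 3.50 for Myh7 (adjusted p = 0.729). Without atorvastatin mouse 3 the difference from control was 0.39, and without mouse 2 it was 0.70. The 3 genes whose pattern over the 20 mice was most like Myh7 were Atp8a1 (r = 0.79), Prickle1 (r = 0.76) and Tnk2 (r = 0.75), given as a description of mice that share their arrays and diets.

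Myh6 was read by 2 probe sets that did not move together, with r = 0.06 over the 20 mice. The brighter gave 36548, 41772, 35237 and 39826 in pitavastatin mice, 28527, 30430, 33641 and 39217 in pravastatin mice, 27063, 48974, 21493 and 35217 in rosuvastatin mice and 21339, 40938, 28884 and 53492 in atorvastatin mice, against 32887, 36221, 35516 and 44960 in control mice. The spread between mice was widest with rosuvastatin and atorvastatin, where both the lowest and the highest mice were found. Its differences from control were 0.04, -0.18, -0.23 and -0.12 for pitavastatin, pravastatin, rosuvastatin and atorvastatin (SE 0.24 for each, smallest adjusted p = 0.755).

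The dimmer Myh6 probe set gave 2640, 2727, 2976 and 2329 in pitavastatin mice, 2502, 3069, 2595 and 2655 in pravastatin mice, 2833, 2611, 2282 and 2293 in rosuvastatin mice and 2910, 2311, 3254 and 2934 in atorvastatin mice, against 3191, 3090, 2433 and 3466 in control mice. Control mouse 4 was the highest of the 20, and each group overlapped the control mice. Rosuvastatin differed from control by -0.27 (SE 0.12, adjusted p = 0.452). The difference was -0.34 after quantile normalization, -0.29 with the array median as a covariate and -0.27 with replicate number as a block. Without pitavastatin mouse 2 and rosuvastatin mouse 3 it was -0.23. It turned to 0.11 when each array was centred on its median over all probe sets, a setting chosen after seeing the data. Another 2 probe sets are annotated to both Myh6 and Myh7. The brighter of these followed the brighter Myh6 probe set (r = 0.92), and the dimmer did so weakly (r = 0.26).

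The balance of the myosins was taken per mouse as log2 Myh7 minus log2 of the brighter Myh6 probe set, and is read between mice only. Pitavastatin mice averaged -4.92 ± 0.34, pravastatin mice -4.70 ± 0.41, rosuvastatin mice -4.81 ± 0.48 and atorvastatin mice -4.30 ± 0.83, against -4.99 ± 0.41 in control mice (SD, n = 4 each). Atorvastatin mice 1 and 3 stood at -3.63 and -3.54, above the control mice at -4.76, -4.59, -5.09 and -5.52, while atorvastatin mice 2 and 4 stood at -4.96 and -5.07 among them. The difference was 0.69 with atorvastatin (two-sided exact permutation p = 0.229, adjusted p = 0.571 over 5 tests), 0.29 with pravastatin (exact p = 0.343), 0.18 with rosuvastatin (exact p = 0.6) and 0.07 with pitavastatin (exact p = 0.8). The smallest p that 4 against 4 mice allow is 0.0286. The mean of the 4 statins differed by 0.31 (exact p = 0.31, adjusted p = 0.571, smallest possible p = 0.000206). Leaving out 1 mouse moved the atorvastatin difference to between 0.44 (without atorvastatin mouse 3) and 0.95 (without atorvastatin mouse 4). The pravastatin difference moved to between 0.12 (without control mouse 4) and 0.44 (without pravastatin mouse 4), and that of the mean of the statins to between 0.13 (without control mouse 4) and 0.44 (without control mouse 2). With the array median as a covariate, pravastatin gave 0.17 and the mean of the statins 0.12. The brighter Myh6 probe set followed the 99th percentile signal of its array (r = 0.955 over 20 mice, described with Actc1). After quantile normalization, which gives every array the same distribution, atorvastatin differed from control by 0.55 for Myh7 and by 0.00060 for this Myh6 probe set. That step leaves so bright a probe set little room to vary: the SE of the Myh6 difference was 0.056 with it and 0.24 without it. The part of array brightness in the balance was not tested further.

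With the dimmer Myh6 probe set the balance was -0.76, -0.83, -0.39 and -0.89 in atorvastatin mice, against -1.40, -1.05, -1.23 and -1.83 in control mice. These groups do not overlap. Pitavastatin mice stood at -1.07, -0.78, -1.14 and -1.34 and pravastatin mice at -0.80, -1.10, -1.25 and -1.26. Rosuvastatin mice stood at -1.54, -1.12, -0.95 and -0.99. Each of these other statin groups overlapped the control mice, though the mean of each was above the control mean, as was the mean of all statins together. The atorvastatin difference was 0.66, with the smallest exact permutation p the design allows, 0.0286, and an adjusted p of 0.097 over the 5 tests. Neither balance passed the adjusted threshold.

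**Figure D3:**
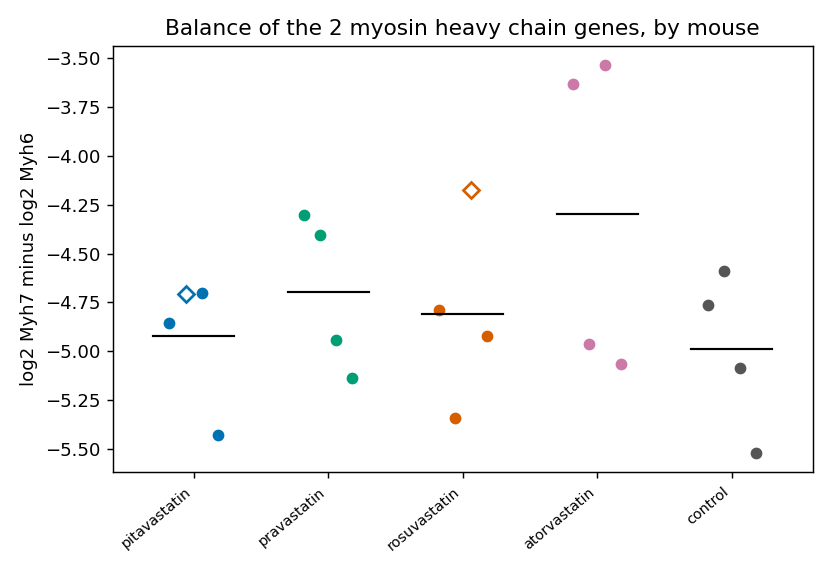
Balance of Myh7 and Myh6 in every mouse, as log2 Myh7 minus log2 of the brighter Myh6 probe set, with bars for the means of 4 mice and open diamonds for pitavastatin mouse 2 and rosuvastatin mouse 3. Atorvastatin mice 1 and 3 stand at -3.63 and -3.54, above all control mice, and the other atorvastatin mice lie within the control range.

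Actc1, the cardiac sarcomeric actin, gave 37987, 43218, 37225 and 43245 in pitavastatin mice, 29622, 33540, 35109 and 43517 in pravastatin mice, 28518, 47791, 21981 and 38752 in rosuvastatin mice and 23107, 43178, 27631 and 51079 in atorvastatin mice, against 35258, 36710, 37798 and 44577 in control mice. The widest groups were again rosuvastatin and atorvastatin, and no statin group stood clear of the control mice. Differences from control were 0.07, -0.13, -0.23 and -0.16 for pitavastatin, pravastatin, rosuvastatin and atorvastatin (SE 0.23 for each, smallest adjusted p = 0.746).

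Actc1 and the brighter Myh6 probe set were high and low in the same mice. After subtracting group means they had r = 0.985 over 20 mice (rho = 0.979, permutation, adjusted p = 0.00036 over 36 pairs, the smallest these shuffles can give, r = 0.980 without the 2 farthest mice). Both also followed the 99th percentile signal of the array, with r = 0.955 for Myh6 (rho = 0.926, r = 0.923 without the 2 farthest mice) and r = 0.949 for Actc1 (rho = 0.950, r = 0.936 without the 2 farthest mice), each with an adjusted permutation p of 0.00099 over 18 relations. After quantile normalization, which gives every array the same distribution, r between the pair was 0.39 (permutation, adjusted p = 0.378). Both probe sets lie at the bright end of the arrays, where quantile normalization leaves a probe set little room to vary. With it the SE of a difference from control was 0.056 for Myh6 and 0.039 for Actc1. Without it these were 0.24 and 0.23. The lower r therefore cannot tell what part array brightness has in the relation, which was not tested.

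**Figure D4:**
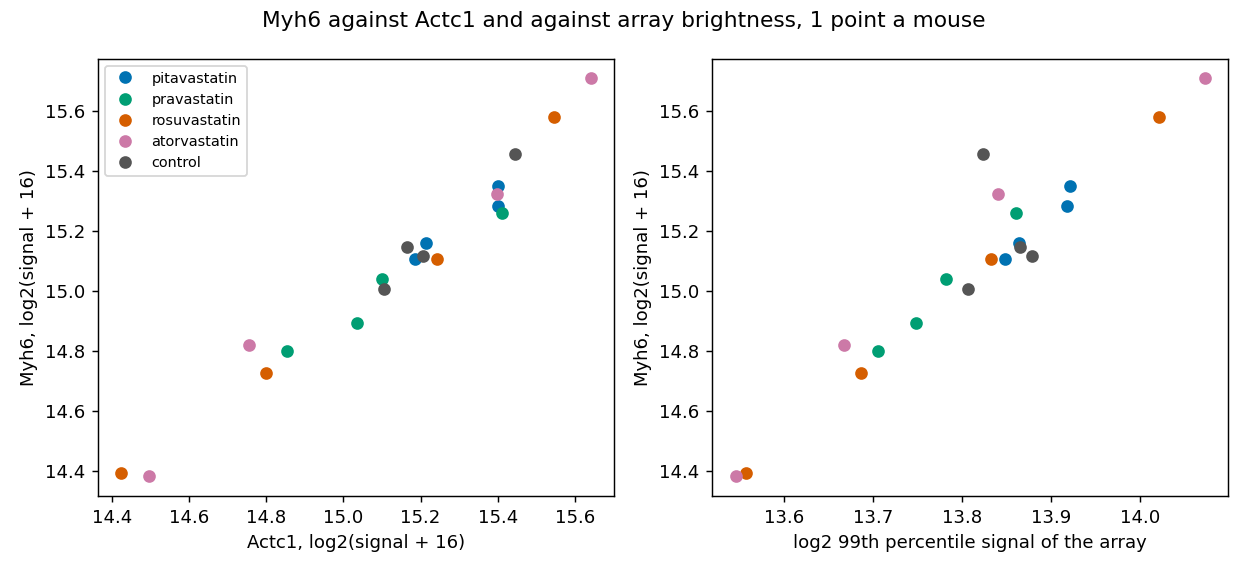
Brighter Myh6 probe set of each mouse against Actc1 (left) and against the log2 99th percentile signal of the array (right), 1 point a mouse, coloured by group. The points follow a line in both panels, with r = 0.985 and r = 0.955 after group means were subtracted, and atorvastatin and rosuvastatin mice stand at both ends.

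Acta1, the skeletal actin isoform that the fetal and the loaded ventricle express more, gave 2753, 7247, 3196 and 2449 in pitavastatin mice, 2032, 3013, 2711 and 2940 in pravastatin mice, 2914, 2787, 9321 and 2189 in rosuvastatin mice and 2768, 2810, 1939 and 2774 in atorvastatin mice, against 4169, 3864, 3659 and 3157 in control mice. All pravastatin and all atorvastatin mice were below all control mice. Of the pitavastatin and rosuvastatin mice, 5 of 8 were below all control mice, pitavastatin mouse 3 lay within the control range, and pitavastatin mouse 2 and rosuvastatin mouse 3 were the 2 highest of the 20. No other member had a statin group that stood clear of the control mice. Over all tested probe sets, 1.03% had all 4 pravastatin mice below all 4 control mice, and 0.573% had all 4 atorvastatin mice below them. The shares below control were 0.764% for pitavastatin and 2.66% for rosuvastatin, with 0 members in either. All 4 mice stood above all control mice in 0.924% of probe sets for pitavastatin, 1.92% for pravastatin, 1.87% for rosuvastatin and 0.799% for atorvastatin, again with 0 members.

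The Acta1 difference from control was -0.48 with pravastatin (SE 0.35, 95% interval -1.21 to 0.25, adjusted p = 0.992) and -0.54 with atorvastatin (95% interval -1.27 to 0.19, adjusted p = 0.964). It was -0.06 with pitavastatin and -0.04 with rosuvastatin, and -0.28 for the mean of the 4 statins (SE 0.28). With pitavastatin mouse 2 and rosuvastatin mouse 3 left out, a choice made after seeing that they were high for Acta1 itself, the SE of the pravastatin and atorvastatin differences was 0.15. Pitavastatin mice then differed from control mice by -0.41, pravastatin mice by -0.48, rosuvastatin mice by -0.50, atorvastatin mice by -0.54 and the mean of the 4 statins by -0.48 (SE 0.12, 95% interval -0.73 to -0.23). The adjusted p-values were 1, 0.863, 0.948, 0.826 and 1 over all probe sets, so Acta1 was not called with or without these mice.

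The atrial light chains separated single mice and not groups. Myl7, the atrial regulatory light chain, gave 12, 1239, 28 and 21 in pitavastatin mice, 199, 3, 8 and 10 in pravastatin mice, 57, 10, 1259 and 4 in rosuvastatin mice and 7, 16, 37 and 67 in atorvastatin mice, against 296, 3, 52 and 43 in control mice. Pitavastatin mouse 2 and rosuvastatin mouse 3 stood far above the rest, followed by control mouse 1 and pravastatin mouse 1. All 16 other mice lay below the filter at a signal of 81.8, where the order of mice is not read. No difference between groups is given for Myl7. Myl4, the atrial essential light chain, gave 575, 3382, 412 and 494 in pitavastatin mice, 1150, 434, 373 and 400 in pravastatin mice, 574, 460, 3052 and 500 in rosuvastatin mice and 436, 548, 604 and 470 in atorvastatin mice, against 1248, 405, 387 and 616 in control mice.

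The same 4 mice were the highest for Myl4 and Myl7. Myl4 differed from control by 0.42, -0.17, 0.43 and -0.21 for pitavastatin, pravastatin, rosuvastatin and atorvastatin (SE 0.61 for each, smallest adjusted p = 0.842). Without pitavastatin mouse 2 and rosuvastatin mouse 3 the pitavastatin and rosuvastatin differences turned, to -0.26 and -0.21. The second Myl4 probe set never passed 59 and is not read. The mice fall into a high pair and 18 others, and most of the others lay below the filter for Myl7, so no correlation between Myl7 and Myl4 is given.

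Pitavastatin mouse 2 and rosuvastatin mouse 3 were set against the other 18 mice for all members and for 8 atrial markers. Both exceeded all 18 for Acta1, Myl7 and Myl4, and for no other member. The pair was picked after seeing that both were high for these genes, so their place there carries no test. The share of all probe sets that put both mice above the other 18 is not given here, for the members or for the atrial markers. The mean of the pair was 2.96 times the median of the others for Acta1 and 6.68 times for Myl4, and no fold is given for Myl7, whose other mice were mostly below the filter. Nppa was 12103 and 8857 in the pair, against 3410 to 10202 in the others. Of 17 probe sets of 7 atrial markers with a probe set, 2 were above all other mice in both, 1 of Sln and 1 of Dkk3, while 1 probe set of Kcnj3 was below all other mice in both. Sln, the sarcolipin of atrial muscle, gave 341 and 298 in the pair, against 3 to 77 in the others, at 1 probe set, and 66 and 15, against 8 to 139, at the second, so its probe sets disagree.

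Dkk3 gave 179 and 208 in the pair, against 50 to 124 in the others, at its brighter probe set. Its other probe set gave 105 and 192, against 9 to 131, so only rosuvastatin mouse 3 stood above the others there. Bmp10, an atrial secreted factor, was at 10 and 1 in the pair, against 1 to 34 in the others, and Nr2f2, an atrial transcription factor, was at 1343 and 1308, against 1203 to 2067, at its brightest probe set. The potassium channel genes Kcnj3 and Kcna5 were 3749 and 4801, against 4026 to 6350, and 706 and 874, against 545 to 926, at their brightest probe sets. A second Kcnj3 probe set gave 1336 and 1322 in the pair, against 1519 to 2095 in the others. Stard10, another marker of the list, was at 231 and 213, against 47 to 239. The summed atrial marker signal lay between 6283 and 7490 with pitavastatin, between 7589 and 8585 with pravastatin, between 7421 and 8777 with rosuvastatin and between 7532 and 8426 with atorvastatin, against 6433 to 9058 in control mice. Fewer cells of a type and less RNA per cell cannot be told apart in such whole tissue, and the part that atrial tissue has in the signals of this pair was not tested.

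Of 4 skeletal muscle genes set beside Acta1, 0 stood above all other mice in both mice of the pair. Mylpf was at 88 and 31 in the pair, against 4 to 82 in the others, Tnni2 at 56 and 68, against 60 to 129, Atp2a1 at 99 and 73, against 5 to 95, and Actn3 at 50 and 19, against 12 to 114. The smooth muscle gene Tagln was 1336 and 1076 in the pair, against 350 to 1068 in the others. The calcineurin target Rcan1 was 3525 and 5359, against 2168 to 3851, and the matrix gene Postn 693 and 1371, against 459 to 760, so both were highest of all in rosuvastatin mouse 3. Corin, the protease that cleaves the Nppa precursor, was 3280 and 3107 in the pair, the 2 lowest signals of the 20 mice, against 3500 to 4936 in the others. These genes were picked after their values were seen and carry no test.

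**Figure D5:**
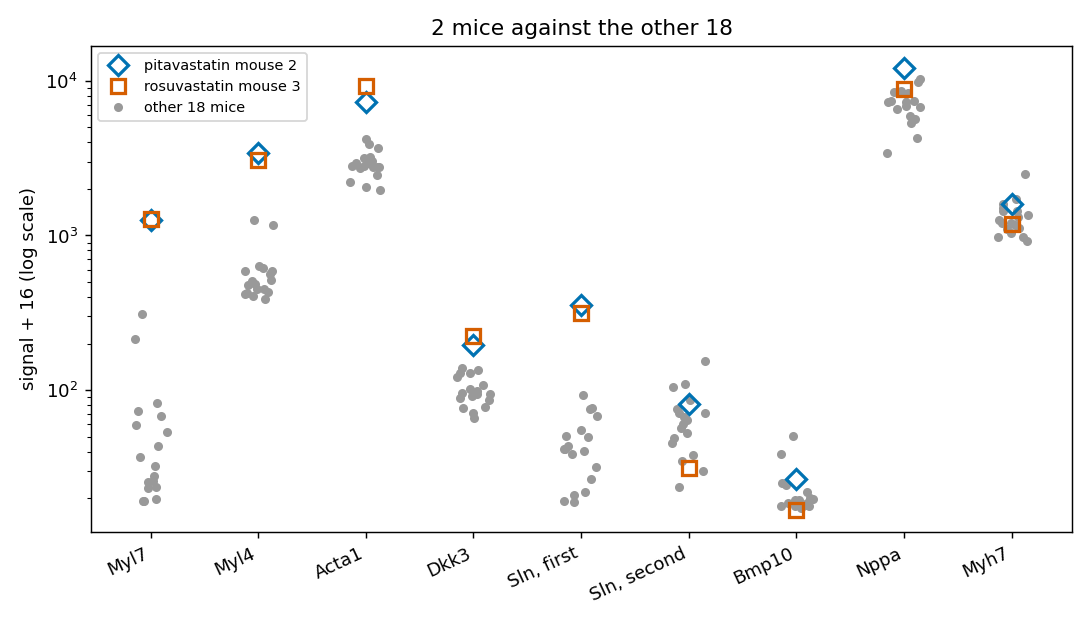
Signal + 16 on a log scale for 3 members that were high in pitavastatin mouse 2 (diamond) and rosuvastatin mouse 3 (square), for the atrial markers Dkk3, Sln (both probe sets) and Bmp10, and for Nppa and Myh7, with the other 18 mice in grey. The pair stands above all others for Myl7, Myl4, Acta1, the brighter Dkk3 probe set and the first Sln probe set. It stands within the others for the second Sln probe set, Bmp10 and Myh7. The other Dkk3 probe set is not shown. All Bmp10 signals and most at the second Sln probe set lie below the filter, where the order of mice is not read. For Nppa only the pitavastatin mouse stands above them.

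Among the 18 other mice Acta1 and Myl4 had r = 0.19, given without a test. The genes most like Acta1 over the 20 mice were Ugp2 (r = 0.80, and 0.64 without the pair), Mfap4 (r = 0.77, and 0.19 without the pair) and Plpp1 (r = 0.74, and 0.36 without the pair). Mfap4, Ecrg4 and Mapt came nearest to Myl7, a likeness not read further because of the mice below the filter. The likest genes to the other members were Vim (r = 0.87), S100a6 (r = 0.84) and Cpsf3 (r = 0.83) for Nppa, Lyz2 (r = 0.90), Ckap4 (r = 0.89) and C1qb (r = 0.89) for Nppb, and Lmod2 (r = 0.82), Clip1 (r = 0.81) and Mia3 (r = 0.80) for Ankrd1, all as descriptions over mice that share groups and array brightness. Lyz2 is itself on the macrophage marker list, whose summed signal lay between 10805 and 12196 with pitavastatin, between 9360 and 14043 with pravastatin, between 10330 and 11911 with rosuvastatin and between 8134 and 11103 with atorvastatin, against 9109 to 12230 in control mice, and the part of macrophages in the Nppb signal was not tested.

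Other genes of the stress response were read from a list of 20, of which 15 were tested and 0 were called by limma in any comparison. An unadjusted p under 0.05 was found for 1 of them with pravastatin and 1 with atorvastatin, and for 0 with either other statin. Such a p was found for 1.93%, 3.93%, 11% and 4.57% of all probe sets with pitavastatin, pravastatin, rosuvastatin and atorvastatin in turn. The list median was 0.03, -0.15, -0.03 and -0.09 for pitavastatin, pravastatin, rosuvastatin and atorvastatin, beside -0.00341, -0.0221, -0.0197 and -0.0279 over all probe sets. By the smallest F test p, Ccn2 and Hcn2 are named.

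Ccn2, a matrix-associated growth factor that TEAD and its cofactor YAP turn on, gave 3667, 3561, 3164 and 2588 in atorvastatin mice, against 2451, 2390, 1498 and 1467 in control mice. All 4 atorvastatin mice were above all 4 control mice, as for 0.799% of all tested probe sets. The difference was 0.76 with atorvastatin (SE 0.24, adjusted p = 0.964), beside 0.49 with rosuvastatin, 0.11 with pravastatin and 0.03 with pitavastatin. Hcn2, a pacemaker channel, differed by -0.97 with pravastatin (SE 0.33, adjusted p = 0.992).

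Adult isoforms and adult heart genes were read from a list of 12, all tested, with 0 called in any comparison. In this list 1 gene with rosuvastatin and 1 with atorvastatin had an unadjusted p under 0.05 against control, and 0 with either of the other statins. Over all probe sets that share was 11% with rosuvastatin, 4.57% with atorvastatin, 1.93% with pitavastatin and 3.93% with pravastatin. In the order pitavastatin, pravastatin, rosuvastatin and atorvastatin, the list median was 0.12, -0.10, -0.13 and -0.10. Over all probe sets the median was -0.00341, -0.0221, -0.0197 and -0.0279. In that order the summed signal of the list ran 295786 to 335987, 244296 to 328468, 190801 to 386371 and 185047 to 402613. Control mice ran 269613 to 314981. Ckm, the muscle creatine kinase, had the smallest F test p (F = 5.98, adjusted p = 0.408) and differed from control by -0.40 with atorvastatin (SE 0.12, adjusted p = 0.873). Slc2a4, the insulin-responsive glucose transporter, differed by 0.18 with rosuvastatin (SE 0.08, adjusted p = 0.452).

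Transcription factors and cofactors described as acting on these promoters made a list of 23, of which 22 were tested and 0 were called. In the same order of statins, 0, 2, 3 and 1 of them had an unadjusted p under 0.05 against control, beside 1.93%, 3.93%, 11% and 4.57% of all probe sets. The list median was -0.0034, 0.06, 0.04 and 0.02, beside -0.00341, -0.0221, -0.0197 and -0.0279 over all probe sets. Myocd, the cofactor of serum response factor at CArG boxes, differed from control by 0.05, 0.52, 0.42 and 0.35 (SE 0.14 for each), with adjusted p-values of 1, 0.639, 0.452 and 0.964. Hand2, a cardiac helix-loop-helix factor, was -0.51 in pitavastatin against rosuvastatin mice (SE 0.12, adjusted p = 0.195).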

How the data were processed

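The series holds 20 left ventricle arrays of 5 groups of 4 mice, grouped by their titles. The deposited values are a linear signal intensity per probe set, and the submitters' processing notes name MAS5 (no version) as the authors' tool. Per the labels, 100 ng of RNA per mouse went through an amplification kit. No scan date or batch is given in the sources used here. Of 45101 probe sets, 64 Affymetrix controls were left out, 16 was added to each signal before log2, and the brighter 50% by mean log2 value (22518, from a signal of 81.8) were tested. The annotation gives 34945 probe sets 1 symbol, 932 several and 9160 none. R 4.3.3 with limma 3.58.1 gave the tests of differences, with 1 mean per group, a trended prior (15 residual and 4.23 prior degrees of freedom) and Benjamini-Hochberg adjustment over all tested probe sets at 0.05. Balances used exact permutation tests, and correlations 100000 shuffles within groups (Python 3.11.15, numpy 2.4.6, scipy 1.17.1), all tested on simulated data. The brightest probe set by mean log2 value stands for a gene, levels of different probe sets are not compared, and fold changes of dim genes are understated by the added 16. Named are all members, the 2 genes of each list with the smallest F test p, and the 3 genes most like a member. The members and lists were chosen with earlier results of these data known. Alternatives covered normalization, centring, the added constant, the filter, the prior, array weights, a replicate block, array brightness, the arrays fitted and arrays left out. The number of arrays limits the precision.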

Additional observations from a re-analysis of the deposited data

Results flagged for a closer look

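Single mice stood apart within their group in 7 of 65 sets of 4 tested with Dixon's ratio, where chance gives about 1 in 20 for a single set. Most of these flags were for Myl7 and Myl4, which were high in the same mice. The sets share mice and include probe sets below the filter, so the count is a description and not a test of an excess. Values here are log2(signal + 16). Of the mice on pitavastatin, mouse 2 was far above the other 3 for Myl7, at 10.29, and for Myl4, at 11.73. Rosuvastatin mouse 3 was far above its group for Myl4, at 11.58. Pravastatin mouse 1 was far above its group for Nppb at 13.46, for Myl7 at 7.75 and for Myl4 at 10.19. Atorvastatin mouse 3 was far below its group for Acta1, at 10.93, and was the highest of all 20 mice for Myh7.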

How the results depend on the processing

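No member passed the test under any alternative. Of 690 member differences from control under other settings 36 changed sign, and so did 40 of 1000 with 1 array left out. The smallest adjusted p among these was 0.175 (Myh7 with atorvastatin, 0.80 with array weights). Between statins, with the array median as a covariate, Nppb differed by 0.47 in pitavastatin against atorvastatin (adjusted p = 0.113). Counts of called members were 0 in all 166 and 240 repeats. Dropping pitavastatin mouse 2 with rosuvastatin mouse 3, the array centring over all probe sets and a filter by mean signal were chosen after seeing the data, and that centring shifted the median of tested probe sets by up to 0.363. Deviations from group means had r between -0.54 and 0.69 for same-numbered mice of different groups (above 0.1 in 19 of 40 pairs, median 0.0788). For differently numbered mice the median r was -0.038 over 120 pairs. Ankrd1 and Ccn2 split by these numbers, as given under other observations. No label says what the numbers stand for, so the replicate block is an alternative only. With it Myh7 with atorvastatin was 0.57 (adjusted p = 0.598), the myosin balance had an adjusted p of 0.417 to 0.75 and no member was called. The count of correlated member pairs was 3 (Myh6 with Actc1, Nppa with Nppb, and Myl7 with Myl4, the last over a high pair of mice and mostly values below the filter). It was 1 after quantile normalization, where Myl7 with Myl4 stayed, and 1 without that pair of mice, where Myh6 with Actc1 stayed. Values that changed sign follow, as log2 differences from control. Without pitavastatin mouse 2 and rosuvastatin mouse 3, dimmer Ankrd1 was -0.024 for pitavastatin, Myl4 was -0.26 for pitavastatin, -0.21 for rosuvastatin and -0.21 for the mean of the 4 statins, Myh7 was -0.0027 for pitavastatin, Nppa was -0.020 for the mean of the 4 statins and the myosin balance was -0.0033 for pitavastatin and -0.028 for rosuvastatin. After quantile normalization, brighter Myh6 was -0.0041 for pitavastatin and 0.00060 for atorvastatin, Actc1 was 0.0081 for pravastatin and the myosin balance was -0.082 for rosuvastatin. With array weights, Nppb was -0.0079 for pitavastatin and -0.035 for rosuvastatin, dimmer Ankrd1 was -0.060 for pravastatin, dimmer Myh6 was 0.071 for atorvastatin, Myl4 was 0.10 for atorvastatin and Nppa was 0.13 for atorvastatin. With the array median as a covariate, dimmer Ankrd1 was -0.025 for pravastatin and -0.066 for rosuvastatin, Actc1 was 0.10 for rosuvastatin and 0.018 for the mean of the 4 statins, Myl4 was -0.034 for rosuvastatin and -0.064 for the mean of the 4 statins, brighter Myh6 was 0.080 for rosuvastatin, Nppb was -0.15 for rosuvastatin, Nppa was -0.075 for rosuvastatin and -0.072 for the mean of the 4 statins and the myosin balance was -0.31 for rosuvastatin. With arrays centred on the median of all probe sets, Nppb was 0.037 for pravastatin and 0.12 for the mean of the 4 statins, Actc1 was 0.16 for rosuvastatin and 0.041 for the mean of the 4 statins, dimmer Myh6 was 0.11 for rosuvastatin, Acta1 was 0.34 for rosuvastatin, Myh7 was 0.33 for rosuvastatin and brighter Myh6 was 0.15 for rosuvastatin and 0.029 for the mean of the 4 statins. With arrays centred on the median of tested probe sets, Acta1 was 0.0080 for rosuvastatin and Myh7 was 0.0010 for rosuvastatin. For pravastatin against control, with 0 calls as reported, the count over all probe sets was 5 for the brightest 30%, 16 with array weights and 6 with the array median as a covariate. For rosuvastatin against control, with 0 calls as reported, the count over all probe sets was 12 with array weights. For the mean of the 4 statins against control, with 0 calls as reported, the count over all probe sets was 2 with array weights. For pitavastatin against pravastatin, with 2 calls as reported, the count over all probe sets was 1 after quantile normalization and with only the groups compared, 0 with arrays centred on the median of tested probe sets, with no filter, with no trend in the prior, without pitavastatin mouse 2 and rosuvastatin mouse 3 and with arrays centred on the median of all probe sets, 5 for the brightest 30%, with the replicate block and with the array median as a covariate and 163 with array weights. For pitavastatin against rosuvastatin, with 1 calls as reported, the count over all probe sets was 0 with arrays centred on the median of tested probe sets, with no filter, with no trend in the prior, with the array median as a covariate, with only the groups compared, without pitavastatin mouse 2 and rosuvastatin mouse 3 and with arrays centred on the median of all probe sets, 188 with array weights and 17 with the replicate block. For pitavastatin against atorvastatin, with 0 calls as reported, the count over all probe sets was 1 after quantile normalization, for the brightest 30%, with the array median as a covariate and with only the groups compared, 57 with array weights and 2 with the replicate block. For pravastatin against rosuvastatin, with 0 calls as reported, the count over all probe sets was 1 with only the groups compared. For the F test over the 5 groups, with 1 calls as reported, the count over all probe sets was 3 for the brightest 30%, 0 with no trend in the prior, without pitavastatin mouse 2 and rosuvastatin mouse 3 and with arrays centred on the median of all probe sets, 185 with array weights, 6 with the replicate block and 5 with the array median as a covariate. With 1 array left out, the count over all probe sets ran 0 to 23 for pravastatin, 0 to 17 for rosuvastatin, 0 to 18 for atorvastatin, 0 to 9 for the mean of the 4 statins, 0 to 9 for pitavastatin against pravastatin, 0 to 10 for pitavastatin against rosuvastatin, 0 to 10 for pitavastatin against atorvastatin and 0 to 49 for the F test over the 5 groups, each highest without control mouse 1. With 1 array left out, dimmer Ankrd1 ran -0.024 to 0.28 for pitavastatin and -0.13 to 0.19 for pravastatin. Myl4 ran -0.26 to 0.78 for pitavastatin, -0.54 to 0.18 for pravastatin, -0.21 to 0.78 for rosuvastatin, -0.40 to 0.15 for atorvastatin and -0.078 to 0.47 for the mean of the 4 statins. Acta1 ran -0.41 to 0.11 for pitavastatin and -0.50 to 0.20 for rosuvastatin. Myh7 ran -0.0027 to 0.26 for pitavastatin and -0.13 to 0.074 for rosuvastatin. Brighter Myh6 ran -0.016 to 0.13 for pitavastatin and -0.34 to 0.10 for atorvastatin. Nppb ran -0.11 to 0.21 for pitavastatin, -0.28 to 0.041 for pravastatin, -0.071 to 0.28 for rosuvastatin and -0.25 to 0.069 for the mean of the 4 statins. Brighter Ankrd1 ran -0.012 to 0.21 for pravastatin. Actc1 ran -0.35 to 0.034 for atorvastatin. Dimmer Myh6 ran -0.20 to 0.0042 for atorvastatin. Nppa ran -0.40 to 0.10 for atorvastatin and -0.077 to 0.12 for the mean of the 4 statins. The myosin balance ran -0.11 to 0.24 for pitavastatin and -0.028 to 0.36 for rosuvastatin. The cause of these changes was not tested.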

Other observations

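Ankrd1 and Ccn2 differed between mice numbered 1 or 2 and mice numbered 3 or 4 in their titles, a split noticed after the values were seen, and no label says what the numbers stand for. The brighter Ankrd1 probe set had a median of 17294 in mice 1 and 2 and of 14050 in mice 3 and 4, and in 4 of 5 groups both lower-numbered mice were above both higher-numbered mice. The dimmer Ankrd1 probe set did so in 3 of 5 groups, with medians of 3361 and 2186. Ccn2 did so in 4 of 5 groups, with medians of 2799 and 1685. Of the other members, Myh7 and Myl4 did so in 2 of 5 groups and Nppb, Acta1 and the dimmer Myh6 probe set in 1. Nppa, Actc1, Myl7 and the brighter Myh6 probe set did so in 0. The share of all probe sets that split in this way is not given here.

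Marker lists of other cell types held 0 called genes in every comparison. By the F test the smallest adjusted p among them was that of Tagln, a smooth muscle marker (F = 5.76, adjusted p = 0.426), followed by the atrial marker Nr2f2 (F = 4.35, adjusted p = 0.591) and the fibroblast marker Dcn (F = 3.65, adjusted p = 0.701). The other genes the rule names were Actn2 and Ttn of ventricular muscle, Kcnj3 of the atria, Tbx3 of the conduction system, Tnni2 of skeletal muscle, Smtn of smooth muscle, Col1a2 of fibroblasts, Cdh5 and Pecam1 of endothelium, Cd68 and Lyz2 of macrophages, Alas2 of red cells and Wt1 of the epicardium, with adjusted p-values of at least 0.787.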
